A study of Mus musculus with 56 samples.

Results

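The inflammatory CC chemokines are 8 genes, Ccl2, Ccl7, Ccl12, Ccl3, Ccl4, Ccl5, Ccl6, and Ccl9, followed here through ChIP-seq peaks in mouse bone marrow-derived macrophages (BMDMs). A peak is a stretch of the genome where reads from immunoprecipitated chromatin pile up, and it was counted as belonging to one of the 8 when the gene name given beside it, that of the nearest transcription start, was one of theirs. Of 1610519 peaks in 56 lists, 1659 (0.103%) carried these names, and each of the 56 lists held at least 1 of them. The lists name 20352 genes in all.

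CC chemokines are small secreted proteins that draw leukocytes along a gradient through G-protein-coupled receptors. Ccl2, Ccl7, and Ccl12, the monocyte chemoattractant proteins, act through Ccr2 and bring monocytes out of the marrow and into inflamed tissue. Ccl3 and Ccl4, the macrophage inflammatory proteins, and Ccl5 (RANTES) attract monocytes, T cells, and other leukocytes, while Ccl6 and Ccl9 are rodent chemokines of myeloid cells that signal through Ccr1. In macrophages, lipopolysaccharide (LPS) acts through Toll-like receptor signalling and the transcription factor NF-kB, whose p65 subunit binds DNA, and many genes of this family are textbook targets of that pathway. The cytokine IL-4 acts through the transcription factor STAT6 and drives alternative macrophage polarization.

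All samples came from wild-type C57BL/6 mice aged 8 to 12 weeks, and BMDMs were differentiated for 6 days in L929 supernatant, a source of M-CSF. In the 1 hr experiment, untreated cells (ctrl) were compared with cells given IL-4 (20 ng/ml) for 1 hr, with 2 samples per group and 8 antibodies. These were against RNA polymerase II phosphorylated at serine 5 of its tail (RNAPII-pS5, tied to initiation) or at serine 2 (RNAPII-pS2, tied to elongation), acetylated histone H3 lysine 27 (H3K27Ac, a mark of active enhancers and promoters), the macrophage lineage factor PU.1, the acetyltransferase p300, and the deacetylases HDAC1, HDAC2, and HDAC3. In the LPS experiment, cells went without pretreatment or spent 24 hr in the same dose of IL-4, and were then left alone or given LPS for 1 hr, at 100 ng/ml by the labels (the study's methods give the unit as nM). The groups are named by pretreatment (PT) and stimulus, as ctrl/ctrl (neither), IL-4 PT/ctrl (IL-4 and no LPS), ctrl/LPS (LPS without IL-4), and IL-4 PT/LPS (both), and each held 2 samples for RNAPII-pS5, RNAPII-pS2, and p65.

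The value of a gene in a sample was the sum of the scores of all its peaks. Outside H3K27Ac, a score is a significance on the −log10 scale, and it grows with sequencing depth as well as with binding. For H3K27Ac it is the normalized tag signal of a 1001 bp region. Changes are given on the log2 scale after the median of genes (or sites) present in every sample was set equal between samples, and a change was called at a Benjamini-Hochberg adjusted p of at most 0.05 over all genes or sites in the limma fit. A number followed by its standard error (SE) or an adjusted p is such a log2 change. In the 8 samples per antibody of the LPS experiment, the comparisons share samples: LPS alone and IL-4 for 24 hr alone share ctrl/ctrl, and the effect of pretreatment under LPS shares ctrl/LPS with the former. In bulk chromatin, a change in the share of cells that carry a peak and a change per cell cannot be told apart.

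The number of peaks stood in for depth, which is unknown, and ran from 8440 in an HDAC3 list to 71027 in a PU.1 list. In the p65 lists it ran from 9556 to 38955, and in the p300 lists ctrl replicate 1 had 44787 peaks against 66710 to 69360 in the other samples. In the 1 hr RNAPII-pS2 lists, all peak names in the samples labelled ctrl carry the word IL4 (16689 and 20677 peaks), and all those in the samples labelled 1 hr IL-4 carry the word for vehicle (16479 and 19492 peaks), so the direction of that comparison is given by label and is uncertain. The HDAC3 antibody is labelled with the catalogue number given for H3K27Ac. Of 6 macrophage markers, all had RNAPII-pS5 peaks at any distance in each of 12 samples. Within 1000 bp of the start, Cd68 had one in all 12, Itgam in 11, Mertk in 10, Adgre1 and Spi1 in 7 each, and Csf1r in 1. None of 9 T cell, B cell, and fibroblast markers had a RNAPII-pS5 peak within 1000 bp of its start in any sample, and of 4 neutrophil markers S100a8 had one in 5 samples. At any distance, Cd3d, Ms4a1, and Pdgfrb had peaks in all 12 samples, S100a8 in 9, and Cd79a in 7, while Cd3e, Col1a1, and Ly6g had none. Peaks at any distance thus do not set macrophage markers apart from all the others.

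The genes lie in 2 clusters on chromosome 11 (RefSeq positions on GRCm38, the build that the lists call mm10). The 67.8 kb cluster of monocyte chemoattractant genes holds Ccl2 (chr11:82035577-82037452), Ccl7 (chr11:82045712-82047525), and Ccl12 (chr11:82101845-82103399). After a gap of 1422.4 kb, the other cluster spans 139.0 kb and holds Ccl5 (chr11:83525778-83530518), Ccl9 (chr11:83572917-83578636), Ccl6 (chr11:83587886-83593087), Ccl3 (chr11:83647843-83649378), and Ccl4 (chr11:83648624-83664683, a span that in this annotation overlaps Ccl3). Distances below are measured from the transcription start that the lists use, and a negative distance lies upstream of it. Most member peaks were away from promoters: 930 of 1659 (56.1%) were intergenic against 39.0% of all peaks, 384 (23.1% against 40.9%) were intronic, and 202 (12.2% against 13.1%) were at a promoter. Ccl5 had 198 intergenic peaks of 211 and Ccl2 287 of 349, whereas Ccl6 had 0 of 267, its upstream peaks being placed in introns of a non-coding transcript. The nearest-start rule also splits 1 element between Ccl3 and Ccl4: a p65 peak at chr11:83655635-83656407 is named Ccl4 (−6.55 kb), and the p300 peak that overlaps it is named Ccl3 (−6.47 kb).

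The following stretches of 200 bases around the middle of the highest p65 peak (GRCm38, plus strand) belong to some of the sites on which the p65 results below turn: some at Ccl2 and Ccl5 where the score after LPS was higher with IL-4 pretreatment, 1 at Ccl5 where it was lower, and those at Ccl4 and Ccl9 with a peak in IL-4 PT/LPS and in no other group. They were chosen after their values were seen. Capitals mark a match, on either strand, to an NF-kB motif (GGGNNTTTCC), a STAT6-type motif (TTCNNNNGAA), or a PU.1 motif (GAGGAAGT). This NF-kB pattern is strict, and looser forms stay in lower case. The Ccl5 −4.39 kb stretch, without capitals, holds 3 matches to the looser form given below. Ccl2 −19.1 kb, also called higher with pretreatment, is not shown, nor are Ccl2 −16.0 kb and Ccl5 −1.77 kb. Their stretches held no match to the motifs marked by capitals.
Ccl2 −23.6 kb, chr11:82011917-82012116: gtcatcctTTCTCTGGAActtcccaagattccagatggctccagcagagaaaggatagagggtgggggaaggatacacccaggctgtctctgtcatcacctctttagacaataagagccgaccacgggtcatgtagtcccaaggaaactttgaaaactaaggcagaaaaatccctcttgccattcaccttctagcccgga
Ccl2 −2.51 kb, chr11:82032970-82033169: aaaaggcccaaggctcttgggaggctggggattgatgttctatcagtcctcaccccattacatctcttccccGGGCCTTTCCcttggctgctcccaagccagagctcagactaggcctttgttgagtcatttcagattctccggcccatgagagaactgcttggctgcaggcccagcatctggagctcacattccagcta
Ccl5 −5.97 kb, chr11:83536393-83536592: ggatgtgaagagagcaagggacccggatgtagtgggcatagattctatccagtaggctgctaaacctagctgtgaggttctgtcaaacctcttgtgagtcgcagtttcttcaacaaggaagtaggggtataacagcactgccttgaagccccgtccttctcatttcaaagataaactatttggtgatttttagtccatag
Ccl5 −4.39 kb, chr11:83534807-83535006: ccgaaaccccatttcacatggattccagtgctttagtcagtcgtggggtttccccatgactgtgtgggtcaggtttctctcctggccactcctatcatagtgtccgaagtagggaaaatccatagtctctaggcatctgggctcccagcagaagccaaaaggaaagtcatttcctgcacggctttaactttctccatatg
Ccl4 −4.99 kb, chr11:83657499-83657698: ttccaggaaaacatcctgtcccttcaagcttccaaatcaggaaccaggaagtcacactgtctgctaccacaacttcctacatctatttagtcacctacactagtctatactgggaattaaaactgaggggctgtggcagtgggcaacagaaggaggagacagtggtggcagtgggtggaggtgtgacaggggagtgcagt
Ccl9 −1.15 kb, chr11:83579682-83579881: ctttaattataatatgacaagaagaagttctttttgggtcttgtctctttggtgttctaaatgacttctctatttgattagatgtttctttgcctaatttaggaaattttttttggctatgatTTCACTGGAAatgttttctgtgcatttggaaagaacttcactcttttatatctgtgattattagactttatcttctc

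Promoters (250 bases before to 50 after the start) were given in the RefSeq table on GRCm38 for 4 of the 8 genes, Ccl12, Ccl9, Ccl6, and Ccl3. Those of Ccl12, where a p65 peak was listed after 24 hr of IL-4 and not in ctrl/ctrl, and of Ccl9, the one of the 4 with an NF-kB match (capitals), are shown.
Ccl12 promoter, chr11:82101595-82101894, plus strand: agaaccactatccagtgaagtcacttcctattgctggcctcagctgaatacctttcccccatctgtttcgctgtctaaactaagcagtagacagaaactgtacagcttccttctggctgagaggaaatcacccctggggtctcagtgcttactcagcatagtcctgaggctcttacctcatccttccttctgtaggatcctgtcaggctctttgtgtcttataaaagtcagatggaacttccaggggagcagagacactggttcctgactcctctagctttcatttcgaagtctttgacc
Ccl9 promoter, chr11:83578587-83578886, minus strand: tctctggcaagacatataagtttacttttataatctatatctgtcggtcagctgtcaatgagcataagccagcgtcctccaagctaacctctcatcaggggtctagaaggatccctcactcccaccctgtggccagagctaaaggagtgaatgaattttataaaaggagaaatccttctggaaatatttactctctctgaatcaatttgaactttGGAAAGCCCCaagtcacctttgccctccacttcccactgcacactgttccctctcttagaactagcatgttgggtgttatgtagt
A match is a description and not a bound site, and a stretch without a strict match may still hold another form of the NF-kB sequence. The NF-kB motif was found in 3 of 50 member p65 sites (6.0%, against 6.04% of 51410 p65 sites with a 200-base window), at Ccl2 −2.51 kb and at the promoters of Ccl2 and Ccl5. Its looser form GGGNNNNNCC, which every strict match also fits, was found in 19 (38.0% against 35.3%), the STAT6-type motif in 5 (10% against 8.28%), and the PU.1 motif in 2 (4.0% against 7.82%). Of 32851 promoters, 1.63% held the strict NF-kB motif, 50.8% the loose one, 6.95% the STAT6-type motif, and 3.2% the PU.1 motif.

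RNAPII-pS5 at the monocyte chemoattractant genes and at Ccl3, Ccl4, and Ccl5 stood higher after LPS than before it, with or without IL-4 pretreatment, whereas at Ccl6 and Ccl9 it did not. LPS alone was called higher at Ccl7, Ccl4, Ccl5, and Ccl3, or 4 of 8 members, where 25.4% of 12477 genes were called and 8.3% were called higher. After IL-4 pretreatment, LPS was called higher at 5 of 8, the same 4 and Ccl12, where 20.5% of genes were called and 7.02% were called higher. The median change of the 8 was 1.25 with LPS alone (−0.34 over all genes) and 1.61 with LPS after IL-4 (−0.17 over all genes).

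At Ccl7, which with Ccl2 recruits monocytes through Ccr2, the summed RNAPII-pS5 score was 5.94 and 6.89 in ctrl/ctrl, 24.1 and 31.8 in IL-4 PT/ctrl, 54.4 and 66.1 in ctrl/LPS, and 95.4 and 83.2 in IL-4 PT/LPS. The 4 groups did not overlap and stood in that order. LPS alone raised it by 3.55, SE 0.30, adjusted p = 0.00184, and IL-4 for 24 hr without LPS raised it as well, by 2.04, SE 0.30, adjusted p = 0.0118, the 1 member called in that comparison (8.66% of genes were called). The change with LPS in pretreated cells was 1.80, SE 0.30, adjusted p = 0.00935. The difference between both LPS responses was −1.75, SE 0.42, adjusted p = 0.0652, and no member was called in that test (6.11% of genes were, and 2 members had an unadjusted p of at most 0.05).

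Ccl2, the main monocyte attractant of the cluster, stood at 53.9 and 83.1 in the ctrl/ctrl replicates and 84.7 and 74.1 in IL-4 PT/ctrl, against 109 and 121 in ctrl/LPS and 150.4 and 157 in IL-4 PT/LPS. Every LPS sample was above every sample without LPS, but the changes missed the threshold (1.10, SE 0.33, adjusted p = 0.0563 with LPS alone and 1.07, SE 0.33, adjusted p = 0.0712 after IL-4). At Ccl12, a mouse ligand of Ccr2, the score was 30.4 and 24.7 in ctrl/ctrl, 14.4 and 10.3 in IL-4 PT/ctrl, 47.3 and 38.04 in ctrl/LPS, and 30.5 and 29.3 in IL-4 PT/LPS. The IL-4 PT/ctrl replicates were the lowest and the ctrl/LPS replicates the highest, while ctrl/ctrl and IL-4 PT/LPS lay close together. The change with LPS was 0.96, SE 0.32, adjusted p = 0.072 in cells without pretreatment and 1.41, SE 0.32, adjusted p = 0.0257 in pretreated cells, and that with IL-4 for 24 hr alone was −1.25, SE 0.32, adjusted p = 0.0672. The Ccl12 call was lost without IL-4 PT/ctrl replicate 2 (1.15, adjusted p = 0.088) or without IL-4 PT/LPS replicate 1 or 2 (1.38 and 1.45, adjusted p = 0.0901 and 0.0831).

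Ccl3, Ccl4, and Ccl5 shared one order of groups without LPS, with IL-4 PT/ctrl below ctrl/ctrl, and a steep rise with LPS. At Ccl4, a macrophage inflammatory protein, the summed score was 17.7 and 28.5 in ctrl/ctrl, 10.3 and 10.8 in IL-4 PT/ctrl, 90.6 and 85.9 in ctrl/LPS, and 77.8 and 78.4 in IL-4 PT/LPS. LPS raised it by 2.30, SE 0.34, adjusted p = 0.00569 alone and by 3.0, SE 0.34, adjusted p = 0.00311 after IL-4. At Ccl5 it was 27.9 and 18.7 in ctrl/ctrl, 11.8 and 14.7 in IL-4 PT/ctrl, 57.3 and 56.2 in ctrl/LPS, and 62.1 and 69.2 in IL-4 PT/LPS. The rise was 1.64, SE 0.30, adjusted p = 0.0107 with LPS alone and 2.43, SE 0.30, adjusted p = 0.00353 after IL-4, but missed the threshold on either side when the highest peak of the gene was used in place of the sum (0.79, adjusted p = 0.0632, and 0.84, adjusted p = 0.0608). Ccl3, which attracts several leukocyte types, stood at 59.4 and 55.5 in the ctrl/ctrl replicates and 39.1 and 26.2 in IL-4 PT/ctrl, against 109 and 135 in ctrl/LPS and 113 and 111 in IL-4 PT/LPS. Its rise was 1.40, SE 0.31, adjusted p = 0.022 with LPS alone and 1.92, SE 0.31, adjusted p = 0.00908 after IL-4. With LPS alone the Ccl3 call was lost without any 1 of the ctrl/ctrl or ctrl/LPS replicates (1.28 to 1.52, adjusted p = 0.0581 to 0.0853). IL-4 for 24 hr alone gave no call at these 3 genes, with changes of −0.92 at Ccl3 (adjusted p = 0.149), −1.16 at Ccl4 (adjusted p = 0.101), and −0.87 at Ccl5 (adjusted p = 0.148).

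Ccl6 and Ccl9, the Ccr1 ligands of myeloid cells, went another way. For Ccl6 the RNAPII-pS5 score was 31.2 and 22.8 in ctrl/ctrl, 42.1 and 47.4 in IL-4 PT/ctrl, 24.5 and 19.4 in ctrl/LPS, and 13.6 and 22.6 in IL-4 PT/LPS. Both IL-4 PT/ctrl replicates were above all other samples. In pretreated cells the change with LPS was −1.23, SE 0.36, adjusted p = 0.0574, and without centring it passed as a fall (−1.35, adjusted p = 0.045). For Ccl9 it was 45.9 and 54.8 in ctrl/ctrl, 77.05 and 70.4 in IL-4 PT/ctrl, 44.3 and 38.6 in ctrl/LPS, and 48.4 and 62.05 in IL-4 PT/LPS. Here too IL-4 PT/ctrl was highest, ctrl/LPS lay below ctrl/ctrl, and IL-4 PT/LPS overlapped it. The changes with LPS alone were 0.04 at Ccl6 and 0.05 at Ccl9 (adjusted p = 0.944 and 0.911).

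In LPS-treated cells, IL-4 pretreatment changed RNAPII-pS5 at none of the 8 members past the threshold, where 10% of genes were called. The smallest adjusted p was 0.177, at Ccl12 (−0.79), and 1 member had an unadjusted p of at most 0.05. By level, both IL-4 PT/LPS replicates were above both ctrl/LPS replicates at Ccl2, Ccl5, Ccl7, and Ccl9, with log2 changes of 0.14 (SE 0.33), −0.08 (SE 0.30), 0.29 (SE 0.30), and 0.12 (SE 0.30) after a shift of 0.29 common to the shared genes was removed.

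**Figure D1:**
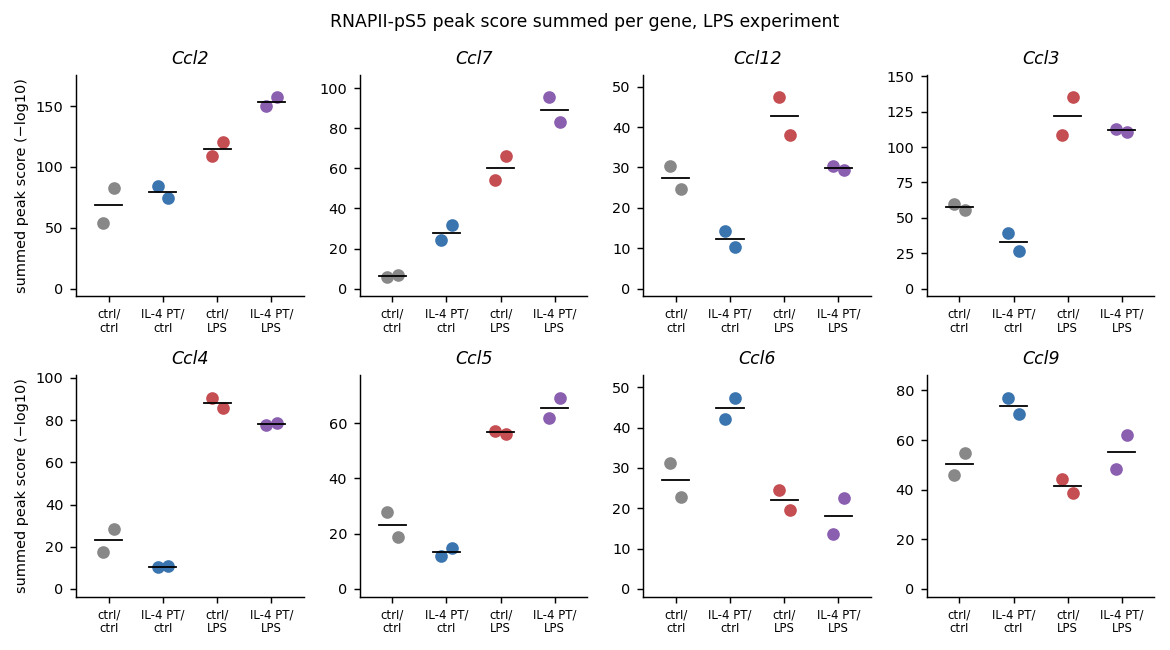
Summed RNAPII-pS5 peak score (−log10 scale, y axis, one range per gene) of the 8 genes in the 4 groups of the LPS experiment; points are samples (2 per group) and lines are group means. Ccl7 climbs over the 4 groups, Ccl3, Ccl4, and Ccl5 rise with LPS in both arms, and Ccl6 and Ccl9 are highest in IL-4 PT/ctrl.

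RNAPII-pS2, the elongating form, gave fewer calls at these genes. LPS alone gave no call among the 8 (26.7% of 13663 genes were called, and 1 member had an unadjusted p of at most 0.05), and LPS after IL-4 gave 1, Ccl7 (20.4% of genes were called). The Ccl7 score was 24.98 and 18.97 in ctrl/ctrl, 15.3 and 17.3 in IL-4 PT/ctrl, 50.03 and 37.1 in ctrl/LPS, and 66.8 and 77.2 in IL-4 PT/LPS. Its IL-4 PT/LPS replicates were above all others, with a change of 1.81, SE 0.25, adjusted p = 0.00592 against IL-4 PT/ctrl and of 0.76, SE 0.25, adjusted p = 0.0741 for LPS alone, which passed without centring (0.98, adjusted p = 0.0457). Pretreatment under LPS was not called at any member (8.46% of genes were called), nor was the difference between the LPS responses (6.38%); unadjusted p-values of at most 0.05 were found at 1 and 2 members.

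Ccl6 was the 1 member whose RNAPII-pS2 was called after 24 hr of IL-4 alone, where 14.4% of genes were called. Its score was 38.98 and 49.5 in ctrl/ctrl, 88.2 and 108 in IL-4 PT/ctrl, 74.6 and 67.6 in ctrl/LPS, and 81.4 and 74.9 in IL-4 PT/LPS. Both IL-4 PT/ctrl replicates were above ctrl/ctrl (1.22, SE 0.24, adjusted p = 0.0252), a call that was lost without ctrl/ctrl replicate 1 (1.01, adjusted p = 0.0841) or IL-4 PT/ctrl replicate 1 or 2 (1.3 and 1.15, adjusted p = 0.0649 and 0.0825). Ccl4 stood at 65.8 and 62.7 in the ctrl/ctrl replicates and 34.5 and 42.01 in IL-4 PT/ctrl, against 103 and 79.8 in ctrl/LPS and 69.2 and 82.9 in IL-4 PT/LPS, so the IL-4 PT/ctrl replicates were the lowest (−0.69, SE 0.24, adjusted p = 0.115). At Ccl3 the score was 77.2 and 92.8 in ctrl/ctrl, 63.9 and 65.1 in IL-4 PT/ctrl, 116 and 141 in ctrl/LPS, and 130.3 and 146 in IL-4 PT/LPS, again lowest in IL-4 PT/ctrl. Without centring, LPS after IL-4 was called at Ccl3 (1.10, adjusted p = 0.023) and at Ccl4 (0.99, adjusted p = 0.0401) besides Ccl7. For Ccl2 the RNAPII-pS2 score was 179 and 187 in ctrl/ctrl, 164 and 207 in IL-4 PT/ctrl, 239.5 and 224 in ctrl/LPS, and 208 and 208 in IL-4 PT/LPS, and for Ccl5 it was 73.2 and 63.4 in ctrl/ctrl, 41.5 and 48.2 in IL-4 PT/ctrl, 70.6 and 72.6 in ctrl/LPS, and 55.1 and 76.9 in IL-4 PT/LPS. Ccl12 and Ccl9 ranged over all samples from 42.1 to 58.0 and from 42.4 to 60.4. Ccl5 was lowest in IL-4 PT/ctrl, and none of these 4 genes was called in any of the 5 comparisons.

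p65 was found near all 8 genes after LPS, in both replicates of both LPS groups. In every member each LPS sample scored above each sample without LPS. Over all shared genes the p65 score rose with LPS by 1.64 on the log2 scale in cells without pretreatment and by 2.29 in pretreated cells, and centring removes that shift, so both values are given. The number of p65 peaks moved the same way, with 9706 and 9556 in ctrl/ctrl, 11026 and 10253 in IL-4 PT/ctrl, 26305 and 26820 in ctrl/LPS, and 36738 and 38955 in IL-4 PT/LPS, and its part in the results was not tested. Without centring, all 8 members were called higher with LPS alone (1.62 to 6.20, where 51.6% of genes were called) and with LPS after IL-4 (1.34 to 5.72, where 72.2% were). Relative to the shared genes, 3 of 8 were called with LPS alone (Ccl12, Ccl4, and Ccl6, all higher, where 35.1% of 12312 genes were called and 19.1% were called higher) and 2 of 8 with LPS after IL-4 (Ccl7 and Ccl3, both higher, where 27.8% were called). Missing peaks received the lowest score of the antibody, so the size of a change from no peak rests on that value.

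At Ccl12 no p65 peak was listed in ctrl/ctrl, and the summed score was 20.9 and 12.8 in IL-4 PT/ctrl, 97.1 and 95.1 in ctrl/LPS, and 99.98 and 92.8 in IL-4 PT/LPS. No peak was present in untreated cells, a low score appeared with IL-4 alone, and the LPS groups overlapped. IL-4 for 24 hr alone was called (3.79, SE 0.28, adjusted p = 0.00355), LPS alone was called (4.56, SE 0.28, adjusted p = 0.000874), and the response to LPS was smaller in pretreated cells (−4.29, SE 0.40, adjusted p = 0.0115 for the difference, the 1 member called where 7.42% of genes were). With only the upper 50% of peaks by score kept in each sample, the Ccl12 calls for IL-4 alone and for the difference were lost (1.11, adjusted p = 0.338, and −1.41, adjusted p = 0.224). At Ccl7 the peak was instead missing after IL-4 alone, and the score was 10.9 and 6.58 in ctrl/ctrl, no peak in either replicate in IL-4 PT/ctrl, 62.5 and 48.3 in ctrl/LPS, and 38.1 and 25.3 in IL-4 PT/LPS. IL-4 for 24 hr alone was called lower (−2.55, SE 0.39, adjusted p = 0.0211) and LPS in pretreated cells higher (2.28, SE 0.39, adjusted p = 0.0104), and under LPS the pretreated replicates were below the others (−1.33, SE 0.39, adjusted p = 0.0911). These were the 2 members called with IL-4 for 24 hr alone, where 5.96% of genes were called, and the Ccl7 call was lost without ctrl/ctrl replicate 1 (−2.16, adjusted p = 0.0664) or IL-4 PT/ctrl replicate 1 or 2 (−2.50 and −2.60, adjusted p = 0.0702 and 0.0606). Both Ccl7 calls were lost with missing peaks at 4 times the lowest score (−0.55 for IL-4 alone and 0.28 for LPS after IL-4). With the upper 50% of peaks the first turned direction (0.12) and the second was lost (0.22).

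Ccl2 stood at 47.9 and 64.2 in the ctrl/ctrl replicates and 58.5 and 66.5 in IL-4 PT/ctrl, against 254 and 271 in ctrl/LPS and 389.8 and 448 in IL-4 PT/LPS. All IL-4 PT/LPS samples were above ctrl/LPS, but the change under LPS relative to the shared genes was 0.17, SE 0.25, adjusted p = 0.753, and without centring 0.67 (adjusted p = 0.118). For Ccl5 the score was 102 and 90.6 in ctrl/ctrl, 71.9 and 70.7 in IL-4 PT/ctrl, 332 and 303 in ctrl/LPS, and 366 and 349.5 in IL-4 PT/LPS. It was present before LPS and ranged from 303 to 366 after it, with an uncentred rise of 1.72 for LPS alone (adjusted p = 0.0012). Ccl3 stood at 26.4 and 32.3 in the ctrl/ctrl replicates and 9.44 and 15.1 in IL-4 PT/ctrl, against 87.3 and 94.3 in ctrl/LPS and 122 and 129 in IL-4 PT/LPS. Here IL-4 PT/ctrl was lowest and IL-4 PT/LPS highest, with a rise in pretreated cells of 1.10, SE 0.32, adjusted p = 0.0493, which missed the threshold without intergenic peaks (adjusted p = 0.0754) and without any 1 sample other than IL-4 PT/ctrl replicate 2 (adjusted p = 0.0694 to 0.134).

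At Ccl4 the p65 score was 9.02 and no peak in replicate 2 in ctrl/ctrl, 4.80 and no peak in replicate 2 in IL-4 PT/ctrl, 124 and 125 in ctrl/LPS, and 127 and 137 in IL-4 PT/LPS, and the LPS groups were far above both groups without LPS. Its change with LPS alone was 3.54, SE 1.00, adjusted p = 0.0403 where 1 replicate of each group without LPS had no peak, and it missed the threshold without intergenic peaks (2.04, adjusted p = 0.064) or without ctrl/ctrl replicate 2 (2.13, adjusted p = 0.104), either ctrl/LPS replicate (3.53 and 3.56, adjusted p = 0.132 and 0.128), or either IL-4 PT/LPS replicate (3.54, adjusted p = 0.0834). At Ccl6 it was 3.89 and no peak in replicate 2 in ctrl/ctrl, 11.2 and 8.95 in IL-4 PT/ctrl, 87.4 and 49.00 in ctrl/LPS, and 104 and 94.4 in IL-4 PT/LPS. LPS alone was called at Ccl6 (3.22, SE 0.59, adjusted p = 0.00978) and missed the threshold without ctrl/LPS replicate 1 (2.78, adjusted p = 0.0512). At Ccl9 the score was 11.1 and 7.15 in ctrl/ctrl, 18.4 and 18.3 in IL-4 PT/ctrl, 24.01 and 31.3 in ctrl/LPS, and 43.6 and 49.9 in IL-4 PT/LPS, and its uncentred rise was 1.62 with LPS alone and 1.34 after IL-4, while relative to the shared genes the values were −0.02 and −0.95. No member was called for pretreatment under LPS (12.5% of genes were, and 1 member had an unadjusted p of at most 0.05).

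**Figure D2:**
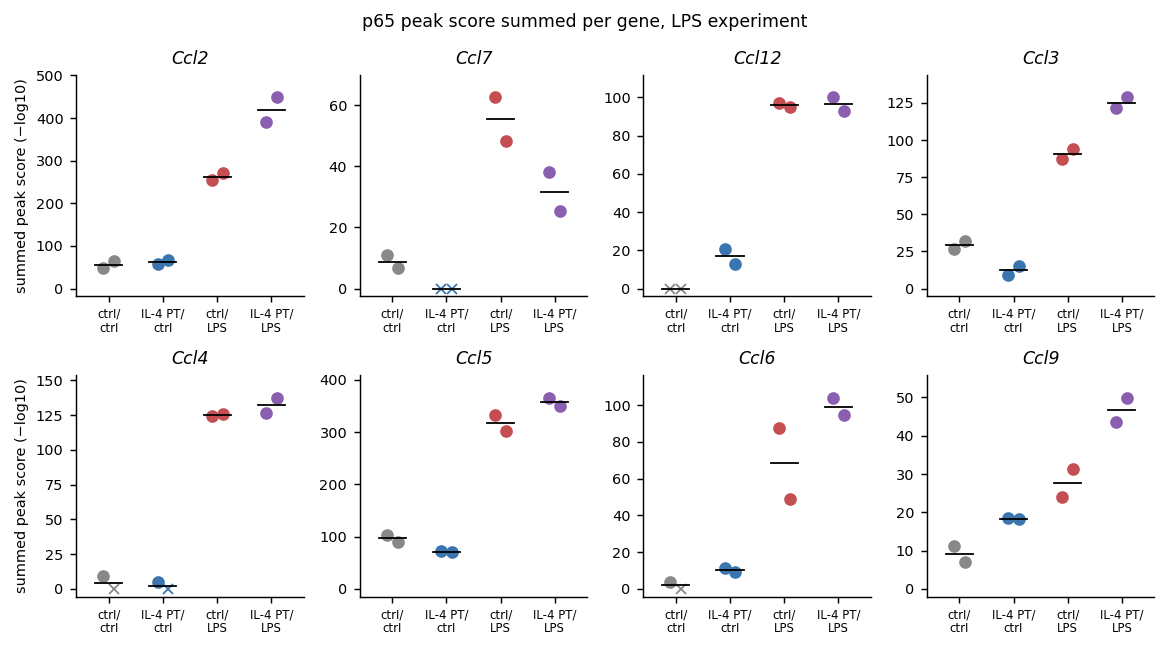
Summed p65 peak score (−log10 scale, y axis, one range per gene) of the 8 genes in the 4 groups of the LPS experiment; points are samples, crosses at 0 are samples with no peak, and lines are group means with missing peaks at 0. All LPS samples lie above all samples without LPS, Ccl12 has a score in IL-4 PT/ctrl and none in ctrl/ctrl, and Ccl7 has the reverse.

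Merging overlapping p65 peaks over the 8 samples gave 50 sites at the members, of which 42 had a peak in at least 2 samples and entered the site fit. A p65 peak in both replicates was found at 12 sites in ctrl/ctrl, 14 in IL-4 PT/ctrl, 32 in ctrl/LPS, and 39 in IL-4 PT/LPS. No peak without LPS was found at 28 of 50 (56.0%, against 64.8% of 51419 p65 sites). LPS alone was called at 26 of 42 sites (46.7% of all sites tested were called), 20 of them higher (26.9% of all were called higher). The remaining 6 included 5 with no peak in any of the samples compared, whose change comes from centring alone, so that 21 calls are left where a peak was required (31.4% of all). Without centring 25 sites were called, all higher (39.5% of all sites were called). LPS after IL-4 was called at 26 sites (40.7% of all), 23 of them higher, with 24 left where a peak was required (38.2%), and without centring at 35 (66.3%), 34 of them higher. IL-4 for 24 hr alone was called at 3 sites (4.22% of all). Without either ctrl/ctrl replicate, LPS alone was called at 16 sites and IL-4 for 24 hr alone at 0.

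Within 1 gene the sites went different ways when LPS-treated cells with and without IL-4 pretreatment were compared. Pretreatment under LPS was called at 17 of 42 member sites (31.3% of all sites tested), 11 higher (25.7% of all were called higher) and 6 lower (5.65% of all were called lower), and without IL-4 PT/LPS replicate 1 the 17 became 11. Some of these calls are at sites with a peak in both replicates of 1 group and in no other sample. In IL-4 PT/LPS alone these sites were Ccl2 −16.0 kb, Ccl5 −1.77 kb, Ccl9 −1.15 kb, Ccl3 14.5 kb, and Ccl4 −4.99 kb. In ctrl/LPS alone they were Ccl2 −30.4 kb and Ccl9 1.34 kb. The counts above were not repeated without them. Such a site entered the fit through that group alone, and its other samples all took the lowest p65 score. Its call therefore follows from how it was selected and filled, and is no support for a difference. At Ccl2 the site at −2.51 kb (chr11:82032705-82033463, shown above with its NF-kB match) had no peak without LPS, scores of 18.5 and 17.5 in ctrl/LPS, and 77.9 and 74.5 in IL-4 PT/LPS. The pretreated replicates were thus far above the others (1.81, SE 0.17, adjusted p = 0.000824). The site at −23.6 kb (chr11:82011807-82012212, with the STAT6-type match) likewise had no peak without LPS, 5.55 and 11.9 in ctrl/LPS, and 31.8 and 29.97 in IL-4 PT/LPS (1.65, SE 0.37, adjusted p = 0.0205). At −19.1 kb the scores were 4.80 and 5.53 in ctrl/ctrl, 3.85 and 4.65 in IL-4 PT/ctrl, 17.9 and 26.6 in ctrl/LPS, and 47.7 and 71.04 in IL-4 PT/LPS (1.15, SE 0.30, adjusted p = 0.0371).

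The Ccl2 sites of highest score did not differ with pretreatment past the threshold. The site at −28.5 kb (chr11:82006689-82007389) had 26.6 and 28.3 in ctrl/ctrl, 29.8 and 29.97 in IL-4 PT/ctrl, 88.01 and 81.3 in ctrl/LPS, and 79.9 and 97.8 in IL-4 PT/LPS. The site at −12.8 kb (chr11:82022525-82023085) went from 9.45 and 12.1 in ctrl/ctrl and 15.7 and 16.7 in IL-4 PT/ctrl to 93.5 and 92.3 in ctrl/LPS and 115 and 128 in IL-4 PT/LPS, and was called with LPS in both arms (2.07, adjusted p = 0.00118, and 1.39, adjusted p = 0.00356). By contrast the Ccl2 promoter site (−0.191 kb), which holds an NF-kB match, ranged only from 7.07 to 16.4 over the 8 samples. At −30.4 kb a peak was found in ctrl/LPS and in no other group (7.66 and 7.78), and at −16.0 kb in IL-4 PT/LPS and in no other group (13.3 and 8.33). Each entered the fit through that group alone, so no p-value is given for it.

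Ccl7 and Ccl12 carried p65 both at their promoters and upstream. The Ccl7 promoter site (−0.151 kb, chr11:82045324-82045771) scored 7.32 and 6.58 in ctrl/ctrl, had no peak in IL-4 PT/ctrl, and scored 10.5 and 9.94 in ctrl/LPS and 19.6 and 10.9 in IL-4 PT/LPS, and its fall with IL-4 for 24 hr alone was called (−2.21, SE 0.33, adjusted p = 0.0233). At −3.68 kb from Ccl7 the score was 52.00 and 38.3 in ctrl/LPS and 18.5 and 14.3 in IL-4 PT/LPS, and this difference missed the threshold (−1.73, SE 0.51, adjusted p = 0.0523). The Ccl12 promoter site (−0.156 kb, chr11:82101360-82102030, whose sequence is shown above) had no peak in ctrl/ctrl, 12.6 and 6.59 in IL-4 PT/ctrl, 59.6 and 42.9 in ctrl/LPS, and 44.9 and 49.8 in IL-4 PT/LPS. It was called with IL-4 for 24 hr alone (2.99, SE 0.33, adjusted p = 0.00925). At −13.7 kb from Ccl12, pretreatment lowered the LPS-treated score from 27.7 and 27.9 to 15.02 and 7.75 (−1.63, SE 0.35, adjusted p = 0.0174).

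At Ccl5, neighbouring upstream sites moved in opposite directions. The site at −4.39 kb (chr11:83534651-83535143), bound in all 8 samples, had 43.3 and 36.7 in ctrl/ctrl, 26.5 and 24.7 in IL-4 PT/ctrl, 117 and 108 in ctrl/LPS, and 79.5 and 87.2 in IL-4 PT/LPS. Pretreated samples were lower both without and with LPS, and the fall under LPS was called (−0.70, SE 0.19, adjusted p = 0.0367) but not without centring (−0.43, adjusted p = 0.106). The site at −5.97 kb (chr11:83536071-83536859), with no peak without LPS, had 26.99 and 36.1 in ctrl/LPS and 81.8 and 91.4 in IL-4 PT/LPS, a rise that was called (1.20, SE 0.21, adjusted p = 0.00764). The Ccl5 promoter site (−0.161 kb), with an NF-kB match, was bound in LPS samples and no others, at 47.1 and 37.5 in ctrl/LPS and 65.8 and 57.2 in IL-4 PT/LPS, and pretreatment did not change it past the threshold (0.28, adjusted p = 0.409).

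Around Ccl3 and Ccl4, the shared element at −6.55 kb from Ccl4 had no peak without LPS, 56.7 and 64.5 in ctrl/LPS, and 54.1 and 58.8 in IL-4 PT/LPS. It was called with LPS in both arms (4.48, adjusted p = 0.000298, and 3.92, adjusted p = 0.000272) and not with pretreatment under LPS (−0.37, adjusted p = 0.184). A further site at −4.99 kb from Ccl4 (chr11:83657367-83657779) was bound in IL-4 PT/LPS and in no other group, at 18.7 and 21.5. It entered the fit through that group alone, so no p-value is given for it. The Ccl4 promoter site (−0.166 kb) was bound after LPS in both arms, at 37.3 and 25.9 in ctrl/LPS and 29.98 and 27.03 in IL-4 PT/LPS. At the Ccl3 promoter site (−0.281 kb) the scores were 12.1 and 14.3 in ctrl/ctrl, 5.25 and 8.57 in IL-4 PT/ctrl, 50.6 and 48.6 in ctrl/LPS, and 56.1 and 57.5 in IL-4 PT/LPS. The rise with LPS was called in pretreated cells (1.57, SE 0.30, adjusted p = 0.00976) and not in the others (0.87, SE 0.30, adjusted p = 0.0602). Without centring the latter was 1.92 (adjusted p = 0.00285).

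Ccl9 had a p65 peak at −1.15 kb (chr11:83579668-83579936, with a STAT6-type match) in IL-4 PT/LPS and no other group, at 12.8 and 14.1. Another at 1.34 kb, within an intron, was found in ctrl/LPS and no other group, at 10.6 and 7.74. Each entered the fit through that group alone, so no p-value is given for it. In the upstream region of Ccl6, the site at −11.7 kb was bound after LPS, at 32.1 and 29.7 in ctrl/LPS and 34.8 and 41.9 in IL-4 PT/LPS. The site at −23.6 kb from Ccl6 had low scores of 5.10 and 8.95 in IL-4 PT/ctrl, 7.11 and 8.03 in ctrl/LPS, and 2.95 and 3.99 in IL-4 PT/LPS. A peak in both IL-4 PT/LPS replicates and neither ctrl/LPS replicate was found at 5 of 50 member sites (10%, against 14.7% of all p65 sites), at Ccl2 −16.0 kb, Ccl5 −1.77 kb, Ccl9 −1.15 kb, Ccl3 14.5 kb, and Ccl4 −4.99 kb. The reverse was found at 3 (6.0% against 2.11%), at Ccl2 −30.4 kb, Ccl9 1.34 kb, and Ccl4 13.2 kb. Those at Ccl5 −1.77 kb and Ccl3 14.5 kb scored 14.3 and 8.09, and 7.83 and 12.6, in the IL-4 PT/LPS replicates. The difference between the LPS responses with and without pretreatment was called at 11 of 42 sites (23.2% of all sites tested), a count that includes sites with peaks in a single group.

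**Figure D3:**
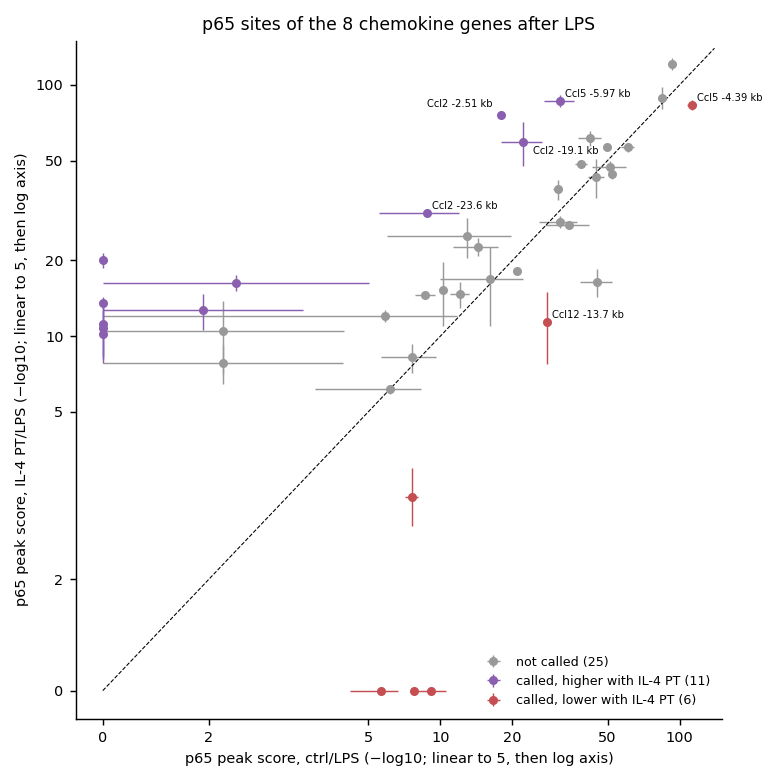
p65 peak score in ctrl/LPS (x axis) against IL-4 PT/LPS (y axis) at the 42 tested p65 sites of the 8 genes, both on the −log10 scale with axes linear to 5 and logarithmic above; points are means of 2 replicates, bars span the replicates, missing peaks are at 0, and the dashed line marks equal scores. Of the sites, 11 were called higher with IL-4 pretreatment, 6 lower, and 25 were not called, and called sites with high scores are named by gene and distance. Called sites whose peaks all lie in a single LPS group entered the fit through that group alone. Their calls are no support for a difference.

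The member p65 sites were also set beside the peaks of the 1 hr experiment, with the share for all p65 sites in parentheses. A PU.1 peak in untreated cells overlapped 40 of 50 (80.0%, against 51.9% of all p65 sites), an HDAC1 peak 62.0% (44.3%), an HDAC2 peak 54.0% (38.9%), and an HDAC3 peak 46.0% (22.1%). RNAPII-pS5 of untreated cells overlapped 58.0% (44.8%) and RNAPII-pS2 36.0% (19.3%). For p300 and H3K27Ac the shares were near those of all sites, at 72.0% (71.6%) and 38.0% (42.4%). After 1 hr of IL-4, p300 overlapped 41 of 50 (82.0%, against 73.3%). Neighbouring sites share a locus, so no test was made of these shares.

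After 1 hr of IL-4, H3K27Ac changed at several of these genes, in both directions. It was called at 5 of 8 members (32.8% of 13035 genes were called), higher at Ccl12 and Ccl2 (14.8% of genes were called higher) and lower at Ccl4, Ccl7, and Ccl9 (18.1% were called lower). At Ccl12 the summed signal went from 35.00 and 32.8 in ctrl to 178 and 172 with IL-4 (2.38, SE 0.06, adjusted p = 0.000689), and at Ccl2 from 228 and 222 to 367 and 402 (0.78, SE 0.07, adjusted p = 0.00895). At Ccl4 it went from 226 and 234 to 38.7 and 37.8 (−2.58, SE 0.06, adjusted p = 0.00046). This fall came from the region at 0.583 kb, with 196 and 209.6 in ctrl, which was not listed with IL-4 and so added nothing to the sum. The Ccl4 region listed in both groups, at 13.0 kb, rose from 29.2 and 24.4 to 38.7 and 37.8. In all 3 genes the replicates lay close together and the groups far apart. Ccl9 went from 605 and 619 to 477 and 493 (−0.33, SE 0.06, adjusted p = 0.0258). The Ccl9 call was lost without any 1 sample (−0.36 to −0.30, adjusted p = 0.0808 to 0.107), and that of Ccl2 without ctrl replicate 1 or 2 (adjusted p = 0.0562 and 0.0572). Ccl7 had 27.6 and 28.1 in ctrl and no region with IL-4 (−1.61). It entered the fit through ctrl alone, so its call is no support for a change and no p-value is given for it. The call rests on the value given to a missing region and was lost when that value was raised 4 times.

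The other 3 members were not called. Ccl3 went from 913 and 861 to 761 and 773 (−0.20, SE 0.06, adjusted p = 0.0719) and Ccl6 from 655 and 644 to 594 and 559 (−0.17, SE 0.06, adjusted p = 0.111), with IL-4 below ctrl in both replicates. Ccl5 went from 247 and 221 to 152 and 195 (−0.44, SE 0.16, adjusted p = 0.121).

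By region, H3K27Ac was called at 14 of 19 tested member regions (40.3% of 28929 regions), 7 higher (18.5% of all) and 7 lower (21.7% of all). Among the called regions, Ccl7 −3.60 kb and Ccl4 0.583 kb were listed in ctrl only, and Ccl12 −13.8 kb and Ccl6 −15.3 kb with IL-4 only. Each entered the fit through that group alone. Such a call follows from how the region was selected and filled and is no support for a change, though it is in the count. Without ctrl replicate 2 the count was 6, without ctrl replicate 1 or IL-4 replicate 1 it was 8, and without IL-4 replicate 2 it was 9. In the monocyte chemoattractant cluster, the Ccl2 region at −28.4 kb (chr11:82006576-82007724) went from 148 and 165 to 257 and 256 (0.77, SE 0.08, adjusted p = 0.0084), and that at −12.2 kb from 66.9 and 57.5 to 109.9 and 146 (1.08, SE 0.18, adjusted p = 0.0194). The Ccl12 promoter region (−0.262 kb, chr11:82101083-82102229) went from 35.00 and 32.8 to 136 and 130.5 (2.03, SE 0.07, adjusted p = 0.000655), and a region at −13.8 kb from Ccl12 was listed with IL-4 and not in ctrl, at 42.7 and 42.00. The gains lay at Ccl2 and Ccl12, while the Ccl7 region between them (−3.60 kb) was listed in ctrl and not with IL-4.

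In the other cluster, 6 of the called regions were lower and 3 were higher, counts that include Ccl4 0.583 kb (listed in ctrl only) and Ccl6 −15.3 kb (with IL-4 only). The Ccl4 region at 0.583 kb, within an intron (chr11:83662648-83663667), had 196 and 209.6 in ctrl and was not listed with IL-4, while the Ccl4 region at 13.0 kb went from 29.2 and 24.4 to 38.7 and 37.8 (0.57, SE 0.11, adjusted p = 0.0281). A list holds only regions that the caller kept, so a missing region is not a measured signal of 0. A region at −15.3 kb from Ccl6 (chr11:83607925-83608934) was listed with IL-4 and not in ctrl, at 119 and 110.4. The Ccl6 region at −25.5 kb went from 366 and 371 to 251 and 239.9 (−0.53, SE 0.06, adjusted p = 0.0104), and the one at its start (0.182 kb) from 288 and 273 to 224 and 209 (−0.32, SE 0.08, adjusted p = 0.0432). At Ccl3 the region at 18.1 kb rose from 72.4 and 64.00 to 96.7 and 92.7 (0.53, SE 0.09, adjusted p = 0.0207), and the one at 8.94 kb fell from 332 and 329.6 to 249.7 and 242 (−0.38, SE 0.06, adjusted p = 0.0193). At Ccl9, the region at 0.721 kb fell from 558 and 570.2 to 439 and 456 (−0.28, SE 0.06, adjusted p = 0.0364). None of the 4 Ccl5 regions was called.

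p300 was called at no member by its summed score (0.0% of 15708 genes were called, the smallest adjusted p among members was 0.0821, and 2 members and 4053 genes had an unadjusted p of at most 0.05). By site, 4 of 51 tested were called (2.46% of 67229 sites). Ccl12 −6.74 kb (no peak in replicate 1 and 4.90 in ctrl against 22.3 and 22.9; 2.47, SE 0.29, adjusted p = 0.0481) was higher with IL-4. So was Ccl3 18.0 kb (chr11:83630973-83631828; 9.99 and 38.6 against 189.9 and 171; 2.53, SE 0.30, adjusted p = 0.0484). Ccl2 −23.6 kb (chr11:82011704-82012203) had no peak in ctrl and 76.5 and 80.5 with IL-4. Ccl6 −12.7 kb had 4.46 and 21.2 in ctrl and no peak with IL-4. Ccl2 −23.6 kb and Ccl6 −12.7 kb each entered the fit through the group with peaks alone. Their calls follow from how they were selected and filled and are no support for a change, so no p-value is given for them. All 4 passed narrowly. The count was 0 without centring, with missing peaks at 4 times the lowest score, with a 50% overlap for merging, and with the replicate block. The ctrl replicate with few peaks scored below the other at 3 of these 4 sites. Without that replicate 6 sites were called, and without any 1 of the other samples 0 were.

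Other p300 sites were high with IL-4 in both replicates without a call. At the Ccl7 promoter (−0.204 kb) p300 went from 13.1 and 57.9 to 175 and 169, at the Ccl12 promoter (−0.249 kb) from 28.1 and 86.4 to 159.6 and 153, and at Ccl4 −3.64 kb from 8.74 and 44.3 to 122 and 112. The element shared by Ccl3 and Ccl4 (here −6.47 kb from Ccl3) went from 23.7 and 58.7 to 136 and 151. In contrast, the Ccl4 promoter (−0.14 kb) had 17.9 and 46.6 in ctrl and 16.9 and 20.1 with IL-4, and the Ccl3 site at 9.08 kb had 184 and 299 in ctrl and 161 and 164 with IL-4. The adjusted p of these 6 ranged from 0.064 to 0.193.

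**Figure D4:**
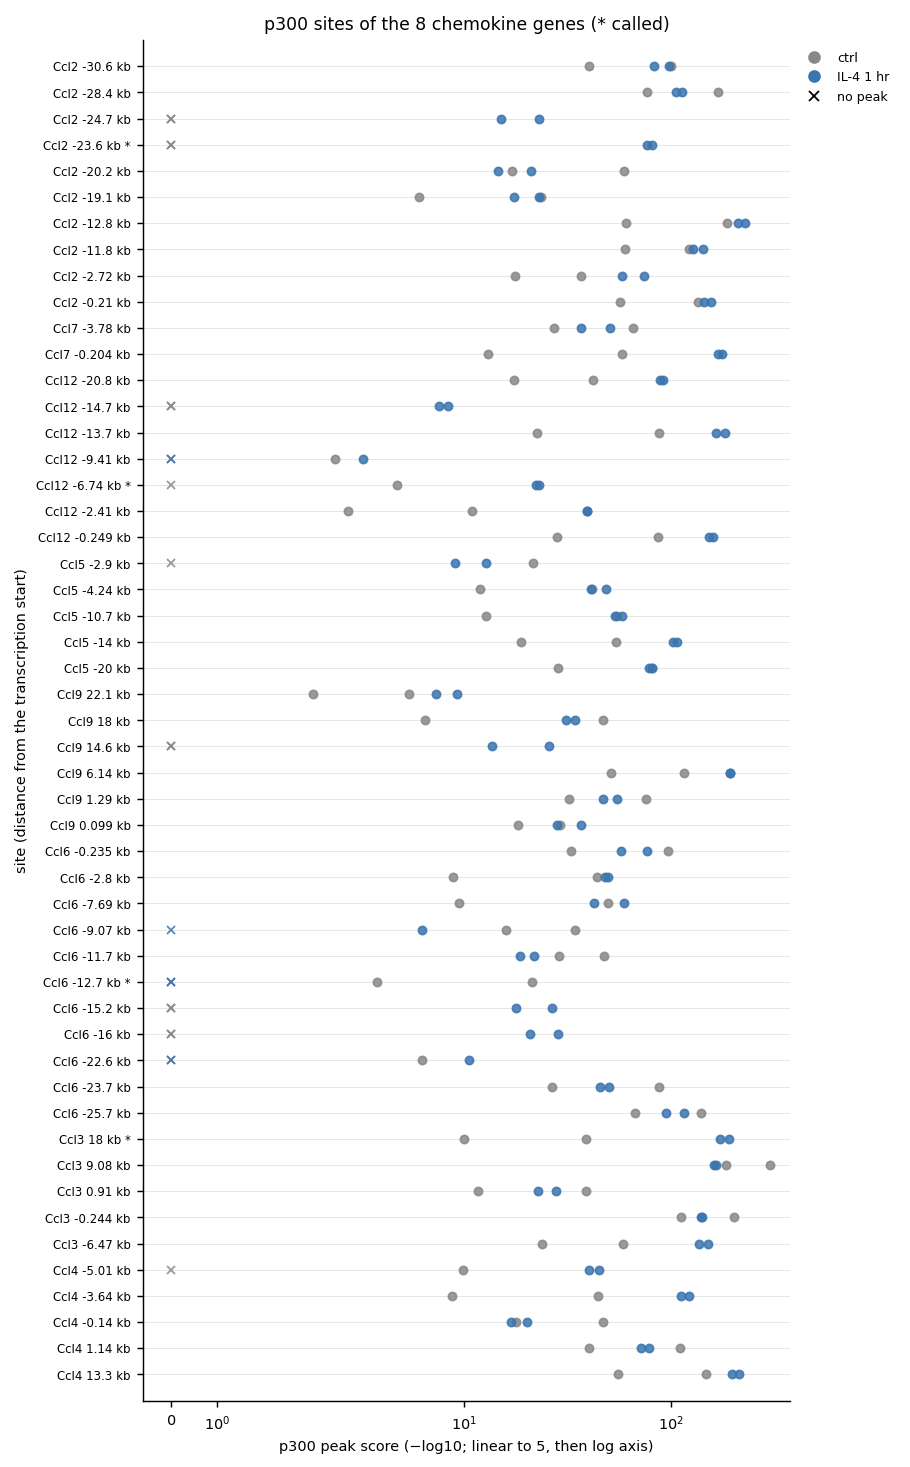
p300 peak score (−log10 scale, x axis, linear to 5 and logarithmic above) of the 51 tested sites of the 8 genes, named by gene and distance from the start; grey points are ctrl samples, blue points samples after 1 hr of IL-4, crosses at 0 samples with no peak, and stars mark the 4 called sites. At Ccl2 −23.6 kb both ctrl samples have no peak. There and at Ccl6 −12.7 kb all peaks lie in a single group, so the star is no support for a change.

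PU.1 was called at no member gene (0.0% of 15653 genes, with an unadjusted p of at most 0.05 at 2 members and 1604 genes) and at none of 69 tested member sites (0.0% of 67996 sites, with 12 member sites at an unadjusted p of at most 0.05). Over all sites, 8260 (12.1%) reached that level. By level, the summed PU.1 score at Ccl2 was 313 and 263 in ctrl and 506 and 558 with IL-4 (0.60, SE 0.26, adjusted p = 0.562), and at Ccl7 62.8 and 47.9 against 124 and 143 (0.99, SE 0.26, adjusted p = 0.383). At Ccl12 it was 125 and 89.7 against 224 and 198 (0.70, SE 0.24, adjusted p = 0.475). Each of these 3 was higher in both IL-4 replicates, after a shift of 0.29 over all shared genes was removed. The changes at the other 5 members were between −0.20 (Ccl6) and 0.19 (Ccl4).

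The deacetylases were called at no member and at no gene (0.0% of 12319 genes for HDAC1, 0.0% of 10464 for HDAC2, and 0.0% of 6015 for HDAC3, where the smallest adjusted p over all genes was 0.239, 0.278, and 0.131). An unadjusted p of at most 0.05 was reached at 2 members and 1091 genes for HDAC1, at 0 members and 991 genes for HDAC2, and at 0 members and 925 genes for HDAC3. HDAC1 at Ccl6 had 48.8 and 37.2 in ctrl and 15.9 and 14.4 with IL-4 (−1.03, SE 0.34, adjusted p = 0.487), and at Ccl7 4.60 and 7.27 against 14.3 and 12.4 (1.66, SE 0.48, adjusted p = 0.419). HDAC2 at Ccl12 had 21.1 and 12.9 in ctrl and 34.6 and 35.7 with IL-4 (1.01, SE 0.46, adjusted p = 0.633). HDAC3 at Ccl12 had 27.6 and 11.9 in ctrl and 51.2 and 32.2 with IL-4 (0.75, SE 0.41, adjusted p = 0.482). At Ccl12 both IL-4 replicates were thus above both ctrl replicates for HDAC2 and HDAC3, but not for HDAC1 (32.6 and 14.99 against 14.5 and 15.4).

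RNAPII-pS5 after 1 hr of IL-4 was called at none of the 8 members (1.39% of 13481 genes were called), with 4 members and 1964 genes (14.6%) at an unadjusted p of at most 0.05. Ccl7 had 5.88 and no peak in replicate 2 in ctrl and 61.1 and 56.9 with IL-4 (4.38, SE 0.57, adjusted p = 0.0869), and without centring it was called (4.34, adjusted p = 0.0436). Ccl12 had 13.6 and 4.86 against 40.1 and 37.6 (2.30, SE 0.38, adjusted p = 0.127). Both genes were thus much higher in each IL-4 replicate. Ccl5 had 41.2 and 26.7 against 17.6 and 18.03 (−0.85, SE 0.15, adjusted p = 0.144) and Ccl9 108 and 80.8 against 48.7 and 63.8 (−0.70, SE 0.23, adjusted p = 0.321), where the ctrl replicates were the higher ones. At the other 4 members the changes ran from −0.41 (Ccl6) to 0.52 (Ccl4), and Ccl2 had 129 and 76.5 against 159 and 107, with overlapping groups. Beside the Ccl4 H3K27Ac region that was no longer listed, RNAPII-pS5 at Ccl4 was not called (49.9 and 32.2 against 67.2 and 46.2; 0.52, SE 0.22, adjusted p = 0.415).

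RNAPII-pS2 in the 1 hr experiment, by label, was called at none of the 7 members tested and at no gene (0.0% of 10617 genes, with 3 members and 1710 genes at an unadjusted p of at most 0.05). In the samples labelled ctrl, Ccl7 had 59.7 and 102 and Ccl12 13.6 and 11.4, and in the samples labelled 1 hr IL-4 neither gene had a peak. The changes by label were −5.73, SE 0.34, adjusted p = 0.0574 at Ccl7 and −3.08, SE 0.40, adjusted p = 0.066 at Ccl12. Ccl2 had 84.2 and 103 in ctrl and 31.7 and 48.3 with IL-4 (−1.17, SE 0.32, adjusted p = 0.192). By the peak names, which carry the opposite treatment, these 3 genes would be higher with IL-4, the side on which RNAPII-pS5 of Ccl7 and Ccl12 lay. Ccl9 had 41.7 and 46.4 in ctrl and 58.04 and 77.3 with IL-4 by label. Ccl5 had 1 peak in 1 sample and was not tested.

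Some p65 sites can be followed through the 1 hr experiment. At Ccl2 −23.6 kb, the site with the STAT6-type match whose p65 score under LPS was higher with pretreatment, p300 had no peak in either replicate in ctrl and 76.5 and 80.5 after 1 hr of IL-4. PU.1 there had no peak in either replicate in ctrl and 13.6 and 16.1 after 1 hr of IL-4 (3.18, SE 0.49, adjusted p = 0.214). Both factors were thus listed with IL-4 and not before it, and each entered its fit through the IL-4 group alone. At Ccl12 −13.7 kb, where pretreatment lowered p65 under LPS, p300 had 22.5 and 87.1 in ctrl and 182 and 164 after 1 hr of IL-4 (1.29, adjusted p = 0.104). PU.1 had 14.3 and 6.11 in ctrl and 41.7 and 52.8 after 1 hr of IL-4 (1.99, adjusted p = 0.242). Neither change was called. The H3K27Ac region was listed with IL-4 and not in ctrl. By level these marks stood higher after 1 hr of IL-4, while p65 under LPS stood lower after 24 hr of pretreatment. At Ccl4 −4.99 kb p300 had no peak in replicate 1 and 9.93 in ctrl and 45.03 and 40.3 after 1 hr of IL-4 (2.88, adjusted p = 0.0705). At Ccl9 −1.15 kb PU.1 had 3.42 and 4.91 in ctrl and 15.2 and 12.1 after 1 hr of IL-4 (1.39, adjusted p = 0.453). The Ccl5 promoter site, Ccl5 −1.77 kb, and Ccl2 −16.0 kb overlapped no peak of the 1 hr experiment.

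A list of 11 other CC chemokines was made by family, with earlier results of these data known. Of these, 8 were tested for H3K27Ac, and 4 were called higher (14.8% of all genes were) and none lower after 1 hr of IL-4. These were Ccl1, Ccl8, and the eosinophil attractants Ccl11 and Ccl24. Ccl11 had no region in ctrl (81.5 and 40.3 with IL-4) and entered the fit through the IL-4 group alone, so its call is no support for a change. Where these 4 lie relative to the members was not examined, and genes of the same locus are not independent, so the count is a description. Ccl8, also named a monocyte chemoattractant protein, went from 10.4 and 10.9 to 65.6 and 68.7 (2.66, SE 0.06, adjusted p = 0.000636). Of 14 receptor genes, 10 were tested for H3K27Ac and 7 were called lower (18.1% of all genes were) and none higher, among them Ccr2 (249 and 272 in ctrl, 141 and 153 with IL-4; −0.82, SE 0.09, adjusted p = 0.0109). With LPS alone, 0 of 8 other chemokines tested were called for RNAPII-pS5 (25.4% of all genes were), and 4 of 8 were called higher for p65 (Ccl1, Ccl8, Ccl17, and Ccl22, where 19.1% of all genes were called higher). With LPS after IL-4, RNAPII-pS5 was called higher at 2 of 8, Ccl22 and Ccl28 (7.02% of all genes were). Ccl22 had RNAPII-pS5 peaks in IL-4 PT/LPS (16.8 and 14.2) and in no other group. It entered the RNAPII-pS5 fit through that group alone, so its calls there are no support for a difference and no p-value is given. Under LPS, pretreatment was called higher at 1 of 8 for RNAPII-pS5, again Ccl22, and at 3 of 8 for p65 (Ccl1, Ccl8, and Ccl22), where 10% and 12.5% of all genes were called. Among 10 receptors tested, RNAPII-pS5 was called lower with LPS alone at 1, Ccr6, and with LPS after IL-4 at 2, Ccr2 and Ccr6, and higher at 1, Ccr9.

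The genes whose RNAPII-pS5 scores followed each member most closely over the 8 samples of the LPS experiment were, by Pearson's r over 5015 genes with a peak in every sample, Tpm3 (0.997) for Ccl2, Kcna2 (0.99) for Ccl7, Ifitm2 (0.985) for Ccl12, Rtp4 (0.994) for Ccl3, Gm15133 (0.993) for Ccl4, Tbc1d13 (0.991) for Ccl5, 5031414D18Rik (0.979) for Ccl6, and G630090E17Rik (0.934) for Ccl9. Next in order for Ccl4 came Il15 (0.993) and Ifi47 (0.991), and for Ccl5 Vps26a (0.991) and Clec4e (0.989). Among the members, r was 0.97 for Ccl3 and Ccl4, 0.96 for Ccl4 and Ccl5, and 0.88 for Ccl2 and Ccl7, while Ccl6 stood at −0.68 with Ccl3 and at 0.54 with Ccl9. The samples fall into an LPS and a non-LPS set and share their libraries, so these values are a description.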

How the data were processed

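ChIP-seq peak lists of 56 BMDM samples (mm10) were used, 1 per sample. The authors aligned reads with BWA (0.7.10 in the submitters' processing notes), called peaks with MACS2 2.0.10 or, for H3K27Ac, HOMER 4.2 findPeaks, and annotated each peak with the gene of the nearest start. The deposited scores of 52 lists were taken as p- or q-values on the −log10 scale, from their range and the peak caller, since the files do not name the unit. The deposited H3K27Ac scores are a signal of normalized tags. No read counts were used, so depth is unknown.

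Scores were summed per gene name, and overlapping peaks (at least 1 bp) were merged into sites. Genes or sites with a peak in at least 2 samples were kept. A missing peak took the lowest score of its antibody. After log2 and centring, limma 3.58.1 (R 4.3.3) compared 2 with 2 samples per antibody in the 1 hr experiment and fitted the 8 samples per antibody of the LPS experiment together, with Benjamini-Hochberg adjustment over all genes or sites. The scripts were tested on simulated data. An exact permutation test of 2 against 2 cannot go below p = 0.333. The study's figure legends call the 2 ChIP-seq replicates independent and biological, while the labels do not say whether they came from separate mice. The p-values measure the spread between samples, and the technical part of that spread is unknown. Members and gene lists were chosen with earlier results of these data known. Named genes were all 8 members, the called genes of the other chemokine and receptor lists, and the genes of highest correlation. Alternatives covered peak choice, the value for missing peaks, centring, filters, and leaving out each replicate. 1 alternative, which required a peak in the samples compared, was added after the data were seen. The values of 1 receptor gene are not reported here.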

Additional observations from a re-analysis of the deposited data

Results flagged for a closer look

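A test of the difference itself (limma, pretreated minus not pretreated, log2 scale, 2 samples per group) compared the p65 response to LPS between pretreated and other cells. It gave a call at 1 member gene and 11 member sites. At the gene level this was Ccl12 (−4.29, adjusted p = 0.0115), where p65 was listed after IL-4 alone and not in ctrl/ctrl. The call was lost with only the upper 50% of peaks by score kept in each sample (−1.41, adjusted p = 0.224). By site the response was smaller in pretreated cells at the Ccl12 promoter (−3.36, adjusted p = 0.00596), at Ccl2 −30.4 kb (−3.02), at Ccl9 1.34 kb (−3.25), and at Ccl6 −23.6 kb (−3.97, adjusted p = 0.0041). It was larger in pretreated cells at Ccl4 −4.99 kb (3.47), Ccl9 −1.15 kb (2.90), Ccl5 −1.77 kb (2.57), Ccl2 −16.0 kb (2.54), and Ccl3 14.5 kb (2.46). The same held at the Ccl7 promoter (2.46, adjusted p = 0.0152) and Ccl2 −2.51 kb (1.62, adjusted p = 0.00758). At all of these the missing peaks took the lowest p65 score, so the sizes and the adjusted p-values depend on that value. The sites given without an adjusted p had a peak in 1 group only and entered the fit through that group. At those sites the test repeats the pattern by which they were selected and is no support for it. With a peak required in every sample, 0 of these calls was left, since none of the sites has one in all 8.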

How the results depend on the processing

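Counts below are of members or member sites called. The replicate numbers do not pair the samples (correlation of deviations from −0.027 to 0.066), and with the replicate block the calls went to 9 H3K27Ac sites and 0 p300 sites, with no other count moved by over 1.5 times. With a peak required in every sample, 12 p300 sites were called, p65 sites fell to 0 (pretreatment under LPS), 4 (LPS after IL-4), 2 (LPS alone), and 0 (difference), and genes went to 1 (RNAPII-pS2, LPS alone), 2 (RNAPII-pS5, IL-4 24 hr), 1 (p300), 0 (p65, LPS alone), and 0 (p65, difference). With missing peaks at 4 times the lowest score, 2 PU.1, 0 p300, and 1 p65 site (IL-4 24 hr) were called, and genes went to 1, 3, and 1 for RNAPII-pS2 (1 hr, LPS after IL-4, LPS alone), 1, 3, and 1 for RNAPII-pS5 (1 hr, IL-4 24 hr, difference), and 1, 1, 4, and 5 for p65 (IL-4 24 hr, under LPS, LPS after IL-4, LPS alone). By the highest peak there were 4 and 1 for RNAPII-pS2 (LPS after IL-4, LPS alone), 2 and 1 for RNAPII-pS5 (IL-4 24 hr, difference), and 1 for p65 under LPS. Without centring there were 0 p300 sites, 3 and 1 for RNAPII-pS2 (LPS after IL-4, LPS alone), 1 for RNAPII-pS5 (1 hr), and 8, 8, and 2 for p65 (LPS after IL-4, LPS alone, difference). Without intergenic peaks there were 3 for H3K27Ac, 4 and 4 for RNAPII-pS2 (LPS after IL-4, LPS alone), 2 for RNAPII-pS5 (IL-4 24 hr), and 5 for p65 (LPS after IL-4), and with a 50% overlap for merging 0 p300 sites. The upper 50% setting kept peaks at or above the median score of their sample and gave missing peaks the lowest score kept. With it there were 1 PU.1 site, 11, 13, and 7 p65 sites (under LPS, LPS after IL-4, difference), 2, 2, and 2 genes for RNAPII-pS2 (1 hr, IL-4 24 hr, LPS after IL-4), 1, 4, 1, and 1 for RNAPII-pS5 (1 hr, IL-4 24 hr, under LPS, difference), and 0, 1, 4, 5, and 0 for p65 (IL-4 24 hr, under LPS, LPS after IL-4, LPS alone, difference). At an unadjusted p there were 12 PU.1, 23 p300, 8 (IL-4 24 hr), and 18 (difference) p65 sites, 2 genes for HDAC1, PU.1, and p300 each, 3, 2, 1, 4, 1, and 2 for RNAPII-pS2 (1 hr, IL-4 24 hr, under LPS, LPS after IL-4, LPS alone, difference), 4, 5, 1, and 2 for RNAPII-pS5 (1 hr, IL-4 24 hr, under LPS, difference), and 5, 1, 4, and 3 for p65 (IL-4 24 hr, under LPS, LPS after IL-4, difference). Leaving out 1 sample at a time gave sites from 6 to 9 (H3K27Ac), 0 to 0 (PU.1), 0 to 6 (p300), and for p65 0 to 4 (IL-4 24 hr), 11 to 17 (under LPS), 19 to 29 (LPS after IL-4), 16 to 25 (LPS alone), and 10 to 16 (difference). For genes it gave 3 to 4 (H3K27Ac), 0 to 1 and 1 to 1 (RNAPII-pS2, IL-4 24 hr and LPS after IL-4), 1 to 2, 4 to 6, and 3 to 4 (RNAPII-pS5, IL-4 24 hr, LPS after IL-4, LPS alone), 1 to 2, 1 to 3, 1 to 3, and 1 to 1 (p65, IL-4 24 hr, LPS after IL-4, LPS alone, difference), and 0 to 0 elsewhere. A lone sample was then assumed to vary like the others. The direction turned at Ccl7 for H3K27Ac with missing regions at 4 times the lowest score (0.01), which exceeds the values of Ccl7 itself. It also turned at Ccl7 for p65 after 24 hr of IL-4 in the upper 50% setting (0.12). There the ctrl/ctrl replicate 1 peak of 7.32 was kept (sample median 6.81) and the replicate 2 peak of 6.58 was dropped (sample median 7.23). The missing peaks took the lowest score kept. Other named calls lost were Ccl5 RNAPII-pS5 by the highest peak, Ccl12 p65 (IL-4 24 hr, 1.11, and difference, −1.41) in the upper 50%, and Ccl7 p65 with a higher value for missing peaks (−0.55 with IL-4 24 hr and 0.28 with LPS after IL-4).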
